A study of Sus scrofa with 2 samples.

Results

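The genes studied were 6 receptors for steroid hormones in the ovarian follicle: PGR, the progesterone receptor, NR3C1, the glucocorticoid receptor, ESR1 and ESR2, the estrogen receptors, and PGRMC1 and PGRMC2, the progesterone receptor membrane components. They were taken by symbol from the deposited gene list, which held all 6 of them among 22342 genes. Somatic cells of 2 pig antral follicles, called AF75 and AF76 here, were measured by 10x Genomics 3' sequencing of single-cell RNA, and each follicle gave 1 library. Both follicles exceeded 7 mm and came from the same pig, a pubertal Landrace × Yorkshire gilt of 210 days primed with pregnant mare serum gonadotropin, so neither an unprimed animal nor a replicate animal entered the comparison. Cells were collected from flushed follicular fluid and from cumulus-oocyte complexes that had been pipetted in hyaluronidase. Barcodes with 2000 to 5000 detected genes and less than 7% mitochondrial counts, 9362 of 14289 in AF75 and 7843 of 15548 in AF76, are called cells below.

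PGR, NR3C1, ESR1 and ESR2 are nuclear receptors: chaperones hold each of them until its hormone binds, after which it attaches to DNA through zinc fingers and changes transcription with the help of coregulators. Granulosa cells make progesterone and estrogen, and PGR is known in mammals for its part in ovulation after the gonadotropin surge. PGRMC1 and PGRMC2 are unrelated heme-binding membrane proteins of the cytochrome b5 type that are found in many tissues.

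To show how the nuclear receptors differ in the part that reads DNA, the code of the first zinc finger is given for each, read from the RefSeq annotation of Sscrofa11.1, the build used for counting. Each stretch covers 69 bases of a single exon, and the capitals mark the 18 bases of the P box, which contacts the response element.
ESR1: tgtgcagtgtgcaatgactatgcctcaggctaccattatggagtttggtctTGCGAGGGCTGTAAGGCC
ESR2: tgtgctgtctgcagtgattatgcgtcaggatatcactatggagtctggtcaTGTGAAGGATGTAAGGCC
PGR: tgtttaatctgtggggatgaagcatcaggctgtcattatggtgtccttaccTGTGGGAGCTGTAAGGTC
NR3C1: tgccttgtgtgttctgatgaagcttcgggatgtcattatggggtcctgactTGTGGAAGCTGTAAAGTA

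The stretch of ESR1 lies in exon 2 of 8, at chr1:14456975-14457043 on the minus strand. That of ESR2 lies in exon 2 of 8, at chr1:193846808-193846876 on the plus strand. That of PGR lies in exon 2 of 8, at chr9:32125188-32125256 on the minus strand, and that of NR3C1 in exon 4 of 10, at chr2:144855990-144856058 on the minus strand. Within the P box, ESR1 and ESR2 code for the same 6 amino acids, as do PGR and NR3C1, while 3 of the 6 differ between these pairs. Over the 56 residues compared around the fingers, ESR1 and ESR2 shared 54 and PGR and NR3C1 shared 52, against 30 for ESR1 and PGR. PGRMC1, at chrX:97735402-97743424, and PGRMC2, at chr8:96692823-96710218, both on the plus strand, lack the zinc finger pattern. They share 57.7% of 189 aligned residues. No run longer than 26 bases was identical between the RefSeq transcripts read for any pair of the 6 genes, and the longest was that of ESR1 and ESR2. In RefSeq, NR3C1 and PGRMC2 each overlap 1 uncharacterized gene on the other strand.

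Levels are counts of unique molecular identifiers (UMIs, which count captured transcripts) summed over the cells of a group, divided by all UMIs of the group and scaled to 1000000 (CPM). They were not divided by transcript length, since a 3' library counts the end of each transcript. Intervals in parentheses are at 95% and cover counting error only, by the exact Poisson method for levels, the Clopper-Pearson method for shares and the exact conditional method for ratios. With 1 library per follicle no test between follicles was possible, and the spread between follicles of a kind is unknown. A gene was called different in a comparison when its ratio passed 1.5-fold and at least 1 of the groups held 200 UMIs of it. The cells held 111226504 UMIs in AF75 and 108920601 in AF76, with a median of 11254.5 and 13902 per cell. The libraries shared 18 barcodes among these cells.

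PGRMC1 was the most abundant of the genes in both follicles and ESR2 the least, and the order between them was the same in AF75 and AF76. PGRMC1 stood at 819 CPM (814–824) for AF75 and 833 CPM (828–838.5) for AF76, at rank 194 of 15601 and 186 of 15772 genes with a UMI. PGR followed at 235 CPM (232–238) for AF75 and 273 CPM (270.3–277) for AF76, at ranks 666 and 573. The third place was held by PGRMC2, at 86.9 CPM (85.1–88.6) for AF75 and 96.1 CPM (94.2–97.9) for AF76.

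NR3C1, through which cortisol acts, was at 25.9 CPM (24.9–26.8) for AF75 and 32.4 CPM (31.3–33.5) for AF76. Both estrogen receptors were scarce. ESR1 was at 6.28 CPM (5.83–6.77) for AF75 and 7.21 CPM (6.71–7.73) for AF76, from 699 and 785 UMIs. ESR2 was at 1.21 CPM (1.02–1.44) for AF75 and 1.28 CPM (1.07–1.51) for AF76, from 135 and 139 UMIs, at ranks 10325 and 10256. No neighbors in this order overlapped in their intervals in either follicle. The RefSeq transcripts of ESR1 and ESR2 read here, of 1788 and 1581 bases, hold coding sequence alone, whereas those of the other genes extend beyond it. How far the gene models used for counting extend, and its part in the low levels of ESR1 and ESR2, was not tested.

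Between the follicles no receptor compared differed by 1.5-fold. Of the 6 genes, 5 had enough UMIs to be compared, ESR2 being the exception, and 0 of the 5 passed 1.5-fold in either direction, against 5.62% of 10049 genes. The log2 ratios of AF76 to AF75 were 0.32 for NR3C1, 0.22 for PGR, 0.20 for ESR1, 0.15 for PGRMC2 and 0.02 for PGRMC1. The median absolute log2 ratio of the genes compared was 0.12. The ratio of AF76 to AF75 was 1.25 (1.19–1.315) for NR3C1, 1.16 (1.14–1.18) for PGR, 1.15 (1.03–1.27) for ESR1 and 1.11 (1.08–1.14) for PGRMC2. PGRMC1 was nearly equal, at 1.02 (1.01–1.03), and its ratio fell just below 1 when cells were thinned to equal depth, when CPM was averaged over cells and when wider limits on barcodes were set. The ratio of ESR2, 1.05 (0.824–1.34), could not be told from 1 at this depth.

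Detection in single cells followed level. A UMI of PGRMC1 was found in 98.5% of AF75 cells and 98.05% of AF76 cells, of PGR in 82.3% and 83.5%, and of PGRMC2 in 61.3% and 69.9%. NR3C1 was found in 23.6% and 31.7% of cells, ESR1 in 6.57% and 8.71%, and ESR2 in 1.399% and 1.54%. As AF76 cells were read more deeply, each cell was also cut at random to 5000 UMIs (thinning). The 19 AF75 and 105 AF76 cells with fewer UMIs were then set aside.

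At that equal depth PGR was found in 61.6% (60.6–62.6) of AF75 cells and 63% (61.9–64.1) of AF76 cells, and PGRMC2 in 34.6% (33.7–35.6) and 37.8% (36.7–38.9). NR3C1 was found in 11.2% (10.6–11.85) and 14.4% (13.65–15.2), so the follicles remained apart for NR3C1 and PGRMC2. ESR1 was found in 3.08% (2.74–3.45) and 3.502% (3.10–3.94), and ESR2 in 0.567% (0.425–0.741) and 0.543% (0.3915–0.733), where the intervals of the follicles overlapped, as they did for PGR. The thinned share of PGRMC1 was lower in AF76, 90.8% (90.2–91.5) against 92.25% (91.7–92.8), while its CPM was not, so no order of the follicles was read from it.

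**Figure D1:**
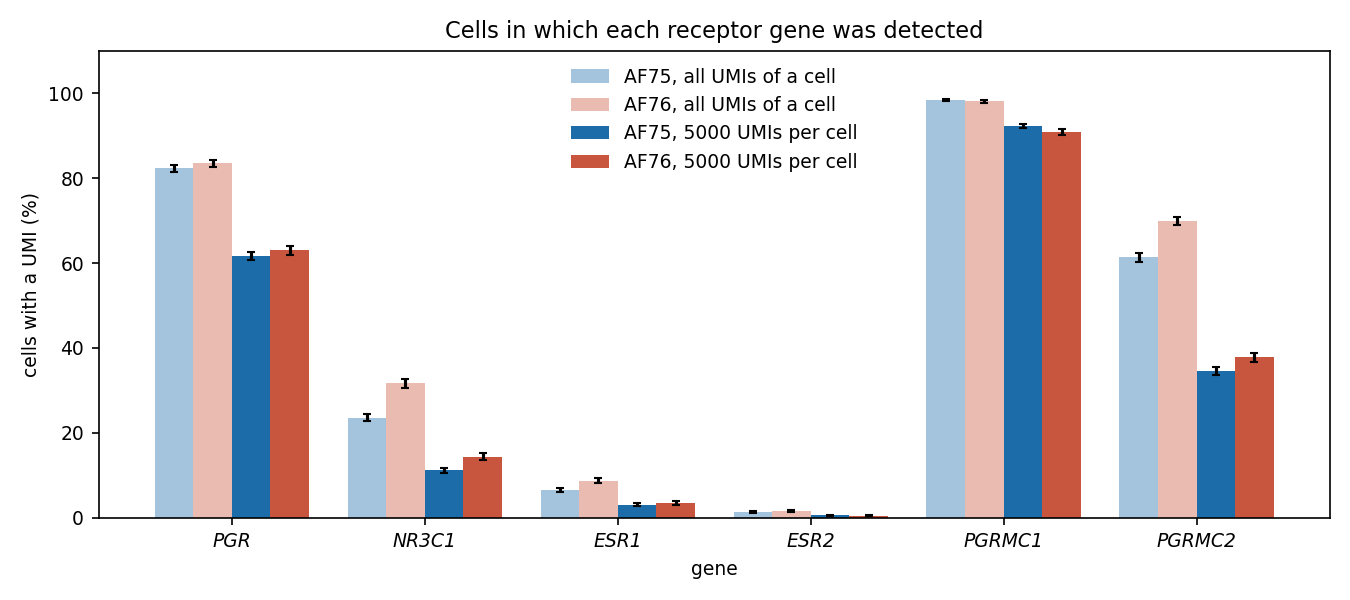
Share of cells, in percent, with at least 1 UMI of each receptor gene in AF75 and AF76, with all UMIs of a cell and with each cell thinned to 5000 UMIs, and 95% Clopper-Pearson intervals as error bars. At 5000 UMIs PGR was found in 61.6% and 63% of cells and ESR2 in 0.567% and 0.543%.

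Droplets also pick up free RNA, so the genes were read in leukocyte-like and red-cell barcodes, drawn from all deposited barcodes. In AF76, 26 leukocyte-like barcodes, with at least 10 UMIs over at least 3 leukocyte markers, had a median of 4508.5 UMIs, and 46 red-cell barcodes, with HBB at 20% of UMIs or more, a median of 3602. PGR was found in 6.52% (1.37–17.9) of the red-cell barcodes and 26.9% (11.6–47.8) of the leukocyte-like barcodes, and its level was 16.75 CPM (3.45–48.9) and 77.15 CPM (43.2–127). PGRMC1 was found in 21.7% (10.95–36.4) and 46.15% (26.6–66.6), at 100.5 CPM (59.55–159) and 453 CPM (363–558). INHA, an abundant granulosa transcript, was at 2160 CPM in the red-cell barcodes and 8106 CPM in the leukocyte-like barcodes. Whether granulosa cells shared some of these droplets was not tested, so the leukocyte-like values are not a measure of free RNA alone.

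NR3C1, which leukocytes are known to express, had 0 UMIs in the red-cell barcodes and 11 in the leukocyte-like barcodes, where its level was 56.6 CPM (28.2–101). ESR1 and ESR2 had 0 UMIs in both sets. In AF75 these sets held only 5 and 12 barcodes. HBB was at 581200 CPM in the red-cell barcodes of AF76, which lowers the CPM of every other gene there. Over all cells of AF76, PGR and PGRMC1 stood above both sets, with no overlap of the CPM intervals.

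Single cells differed in PGRMC1 by more than counting gives. At 5000 UMIs the variance of PGRMC1 counts over their mean was 3.41 in AF75 and 3.76 in AF76, where Poisson counts would give 1, and a cell held up to 34 and 32 UMIs around means of 4.12 and 4.06. For PGR the quotient was 1.47 and 1.61, and PGR was found in 61.6% and 63% of cells where Poisson counts of the same mean would give 69.1% and 73.0%. Those of NR3C1 were 1.14 and 1.08, of ESR1 1.05 and 1.13, of PGRMC2 1.055 and 1.04 and of ESR2 1.07 and 1.04. For genes counted rarely this quotient stays near 1 even where cells differ, since it rises with the mean count. It therefore does not rank the receptors by how much cells differed.

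PGR was detected together with PGRMC1 and with NR3C1 about as often as their separate shares would give. In the largest cluster, cluster 0, PGR and PGRMC1 were both found in 58.5% of thinned AF75 cells, and the product of their shares was 58.6%. In AF76 these values were 60.9% and 61.5%. As PGRMC1 was found in most cells, this pair had little room to depart from the product. PGR and NR3C1 were found together in 7.99% and 10.1% of cluster 0 cells, and the products were 7.85% and 9.78%. Rarer pairs departed further, on few cells. For ESR1 and NR3C1 the observed share over the product was 0.958 in AF75 and 0.693 in AF76, from 29 and 21 cells. For ESR2 and NR3C1 it was 1.39 and 1.59, from 7 and 9 cells. Over all thinned cells, 2 was the most common number of the genes found, in 46.6% of AF75 and 45.55% of AF76 cells, and 0 cells held all 6.

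Graph-based clustering of both follicles together, with the receptors and their pathway genes kept out of the variable genes, gave 6 clusters. Cluster 0 (6434 cells of AF75 and 5973 of AF76) was led by TGFB3, ENPP2 and IL33, and cluster 1 (2307 and 887) by ARPP21, ALPK2 and SHAS2. Cluster 2 (0 and 681) was led by DEFB1, CCL26 and CEMIP, cluster 3 (455 and 120) by the cell division genes TOP2A, NDC80 and CDCA8, and cluster 4 (165 and 173) by ALDH1A2, SLC24A1 and C12orf75. Groups under 50 cells were left out, which removed cluster 5. The summed level of the granulosa markers (FOXL2, INHA, INHBA, FSHR, CYP19A1 and AMH, 5 of 6 matched) lay between 15630 and 25310 CPM in clusters 0, 1, 3 and 4 of the follicles and was 2985 CPM in cluster 2. INHA gave 2117352 of the 2153718 UMIs of this sum in cluster 0 of AF76 and 11072 of 14398 in cluster 2. The sum therefore mostly follows INHA and does not describe the other markers. Among those, CYP19A1 was level, at 35.43 CPM in cluster 0 of AF76 and 35.45 CPM in cluster 2. Clusters were formed from the cells in which the receptors were then read, so differences between clusters are descriptions without a test. Each of them uses the cells of cluster 0 as its denominator.

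**Figure D2:**
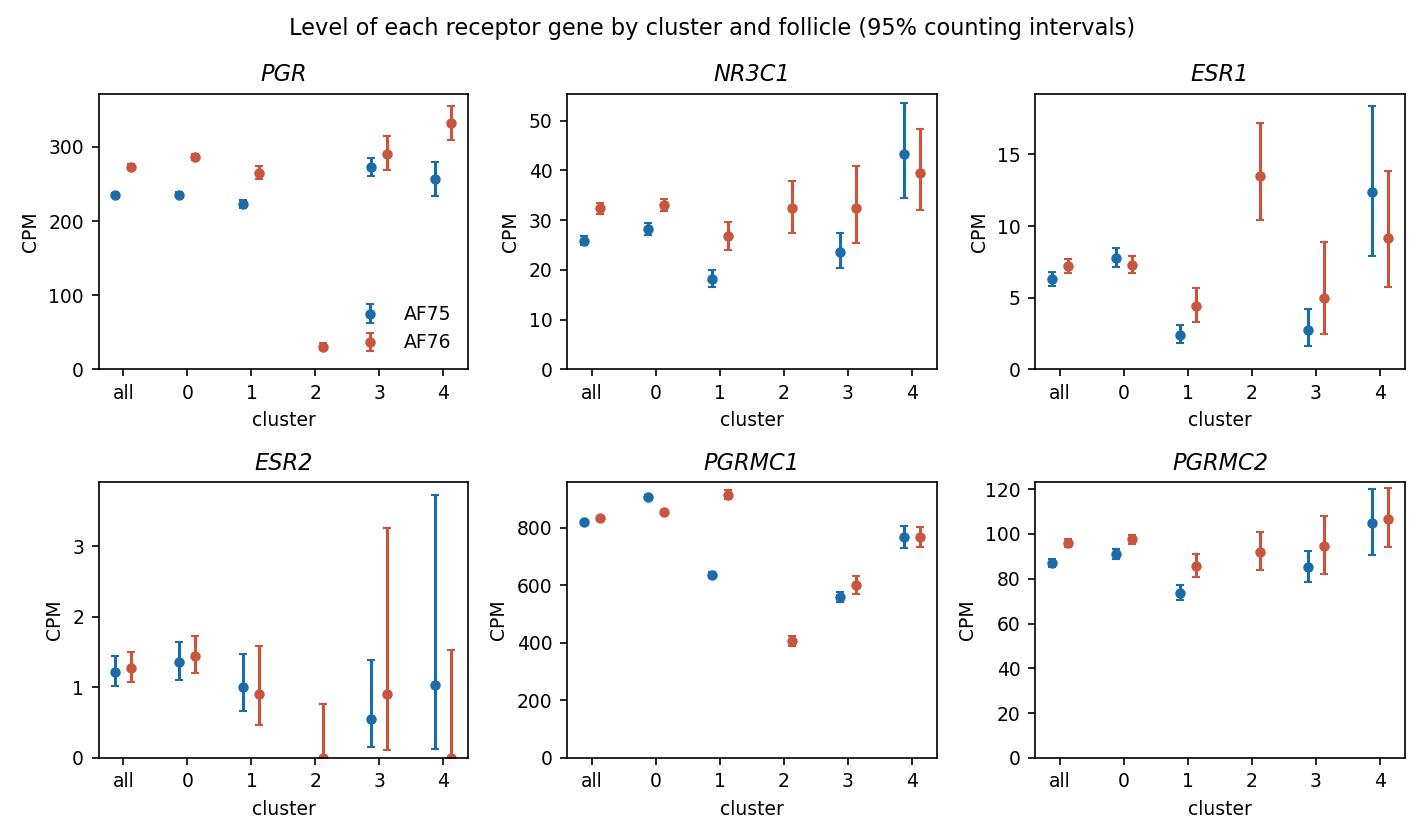
Level of each receptor gene in CPM over all cells and in clusters 0 to 4 of AF75 and AF76, with 95% exact Poisson intervals; cluster 2 held cells of AF76 alone. PGR stood between 223 and 332 CPM in the clusters except cluster 2, where it was at 30.5 CPM.

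PGR was nearly even over the clusters apart from cluster 2. In AF75 it was at 235 CPM (232–239) in cluster 0, 223 CPM (217–229) in cluster 1, 272.5 CPM (261–285) in the dividing cells of cluster 3 and 256 CPM (234–279.8) in cluster 4. In AF76 it was at 286.5 CPM (283–290.1) in cluster 0, 265 CPM (256.5–274) in cluster 1, 291 CPM (269–314) in cluster 3 and 332 CPM (309–355.5) in cluster 4. Cluster 1 was lower than cluster 0 in both follicles, but only by ratios of 0.948 (0.920–0.977) in AF75 and 0.926 (0.893–0.959) in AF76.

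In cluster 2, PGR was at 30.5 CPM (25.75–35.8), a ratio of 0.106 (0.0898–0.125) to cluster 0 of the same follicle. At 5000 UMIs it was found in 12.9% (10.3–15.9) of cluster 2 cells and 67.4% (66.2–68.6) of cluster 0 cells. Cells of cluster 2 were shallower, with a median of 6432 UMIs against 14218. The level of PGR there lay within the interval of the red-cell barcodes. Its share without thinning, 18.4% (15.5–21.5), lay between the 6.52% of the red-cell barcodes and the 26.9% of the leukocyte-like barcodes, and its interval overlapped both of theirs. The part of free RNA in these counts was not tested.

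The receptors were also read against INHA, the inhibin alpha gene and an abundant granulosa transcript. INHA was at 24570 CPM in cluster 0 of AF76, 2296 CPM in cluster 2, 2160 CPM in red-cell barcodes and 8106 CPM in leukocyte-like barcodes. For every 1000 INHA UMIs there were 11.7 (11.5–11.8) UMIs of PGR in cluster 0, 13.3 (11.2–15.6) in cluster 2, 9.52 (5.31–15.75) in leukocyte-like barcodes and 7.75 (1.59–22.8) in red-cell barcodes, the last from 3 PGR UMIs, and these intervals overlapped. For NR3C1, PGRMC2 and PGRMC1 those of clusters 0 and 2 did not overlap. Per 1000 INHA UMIs, NR3C1 was at 1.34 (1.29–1.39) in cluster 0 and 14.1 (11.95–16.5) in cluster 2, PGRMC2 at 3.97 (3.89–4.06) and 40.1 (36.4–44.1), and PGRMC1 at 34.7 (34.5–35.0) and 177 (168.5–186).

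**Figure D3:**
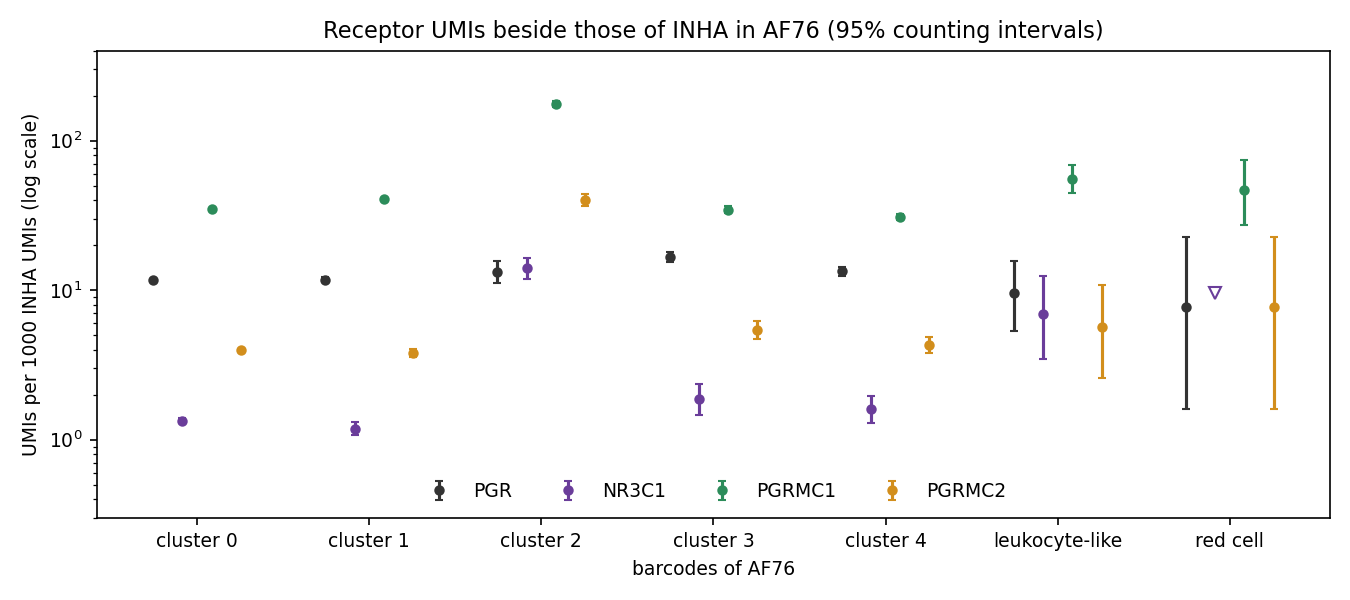
UMIs of PGR, NR3C1, PGRMC1 and PGRMC2 per 1000 UMIs of INHA, on a log scale, in clusters and in leukocyte-like and red-cell barcodes of AF76, with 95% exact conditional intervals. The open triangle marks the upper limit for NR3C1 in red-cell barcodes, which held 0 of its UMIs. PGR stood between 7.75 and 16.7 in these groups, while NR3C1 was at 1.34 in cluster 0 and 14.1 in cluster 2.

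Cluster 2 also set the other receptors apart from one another. NR3C1 was at 32.3 CPM (27.5–37.8) there and 33 CPM (31.8–34.2) in cluster 0, a ratio of 0.980 (0.829–1.15). PGRMC2 was at 92.05 CPM (83.7–101) and 97.6 CPM (95.5–99.7), a ratio of 0.943 (0.8555–1.04). PGRMC1 was lower, at 406 CPM (388–424) against 853 CPM (847–859), a ratio of 0.476 (0.455–0.498). In contrast ESR1 was higher, at 13.5 CPM (10.4–17.2) from 65 UMIs against 7.30 CPM (6.74–7.89), a ratio of 1.85 (1.41–2.39). At 5000 UMIs ESR1 was found in 5.93% (4.17–8.15) of cluster 2 cells and 3.504% (3.05–4.002) of cluster 0 cells. ESR2 had 0 UMIs in 681 cells, which at a floor of 3 counts allows a share of up to 0.4405% of cells with a UMI. With the same floor over the cluster its level was at least 2.33-fold lower than in cluster 0. The 95% interval of this ratio set a looser limit, reaching 0.535.

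In this comparison 2 of the 5 receptors compared were called lower, PGR and PGRMC1, where 14.7% of 9435 genes were, and 1 was called higher, ESR1, where 38.7% were. The median of the genes compared was shifted by 0.36 on the log2 scale. Beside that shift the log2 ratios were -0.03 for NR3C1, -0.08 for PGRMC2 and 0.88 for ESR1. In cluster 2 the levels ran in the order PGRMC1, PGRMC2, NR3C1, PGR, ESR1, with overlapping intervals for NR3C1 and PGR, whereas PGR held the second place in the other clusters. Summed leukocyte markers were at 8.500 CPM in cluster 2 and 2.99 CPM in cluster 0, with 6 and 8 of 10 markers found, and their part in these differences was not tested.

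Between the large clusters ESR1 had the widest gap of the receptors. In AF75 it was at 7.79 CPM (7.175–8.44) in cluster 0 and 2.40 CPM (1.84–3.08) in cluster 1, a ratio of 0.309 (0.234–0.401). In AF76 it was at 7.30 CPM (6.74–7.89) and 4.39 CPM (3.33–5.67), a ratio of 0.601 (0.451–0.788). By its ratio, ESR1 was the sole receptor past 1.5-fold lower in both follicles, where 1.99% of 9268 genes were. The interval of ESR1 lay wholly past 1.5-fold in AF75, whereas in AF76 it spanned 1.5-fold, so the call there rests on the ratio alone. ESR1 had enough UMIs to be compared through cluster 0 alone, with 593 in AF75 and 629 in AF76, against 62 and 58 in cluster 1. At 5000 UMIs, 3.74% (3.29–4.23) of cluster 0 cells and 1.43% (0.989–2.01) of cluster 1 cells had an ESR1 UMI in AF75. In AF76 these shares were 3.504% (3.05–4.002) and 2.15% (1.30–3.34). Clustered without integration of the follicles, cluster 1 held 99 cells of AF76, and the mean log2 ratio of ESR1 was -0.30 in place of -1.21.

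NR3C1 was lower in cluster 1 of both follicles too, at 18.2 CPM (16.6–19.95) against 28.2 CPM (27.05–29.45) in AF75 and 26.7 CPM (24–29.65) against 33 CPM (31.8–34.2) in AF76. The ratios were 0.646 (0.583–0.714) and 0.810 (0.723–0.905), so it passed 1.5-fold in AF75 alone, and that difference between the follicles was not tested. Of the 5 receptors compared in AF75, 2 were called lower, where 13.3% of 9383 genes were, and in AF76 1 was, where 2.66% of 9410 genes were. PGRMC2 was lower by ratios of 0.808 (0.768–0.851) and 0.880 (0.8265–0.9365). ESR2 was at 1.01 CPM (0.659–1.48) against 1.35 CPM (1.10–1.64) in AF75 and at 0.908 CPM (0.469–1.59) against 1.45 CPM (1.21–1.73) in AF76, with overlapping intervals in both.

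PGRMC1 went opposite ways in the follicles. In AF75 it was at 635 CPM (626–645) in cluster 1 and 908 CPM (901–914.5) in cluster 0, a ratio of 0.700 (0.688–0.712). In AF76 the levels were 915 CPM (899–931) and 853 CPM (847–859), a ratio of 1.07 (1.05–1.09). Cluster 1 was not made of the same cells in the follicles. A finer cluster led by CALCRL, ALPK2 and PTGS2, finer cluster 4, made up 43.6% of it in AF75 (1006 cells) and 5.07% in AF76 (45 cells). In AF75 that finer cluster held 415 CPM of PGRMC1 and the remaining cells of cluster 1 held 799 CPM, a ratio of 0.520 (0.5025–0.538). Without it the ratio of cluster 1 to cluster 0 was 0.880 (0.863–0.897) in AF75 and 1.08 (1.06–1.10) in AF76, a smaller gap in the same opposite directions.

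Finer cluster 4 of AF75 also had the lowest ESR1, ESR2, NR3C1 and PGRMC2 of the finer clusters of that follicle. ESR1 was at 1.09 CPM from 12 UMIs against 3.38 CPM in the remaining cells of cluster 1, a ratio of 0.323 (0.157–0.616). ESR2 had 3 UMIs there, at 0.273 CPM against 1.55 CPM, a ratio of 0.176 (0.0338–0.582). NR3C1 was at 16.02 CPM against 19.9 CPM, a ratio of 0.8065 (0.665–0.9755). PGR was the exception, higher in these cells at 259 CPM against 196 CPM, a ratio of 1.32 (1.25–1.39). Without finer cluster 4, ESR1 was still lower in cluster 1 than in cluster 0 in both follicles, by ratios of 0.434 (0.318–0.579) and 0.6295 (0.472–0.825). The ratios of NR3C1 were then 0.704 (0.621–0.795) in AF75 and 0.802 (0.714–0.899) in AF76, past 1.5-fold in neither follicle.

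Dividing cells of cluster 3 held less PGRMC1 than cluster 0 in both follicles, at 559 CPM (542–576) for AF75 and 600 CPM (568–633) for AF76, with ratios of 0.616 (0.597–0.6355) and 0.703 (0.666–0.743). ESR1 was at 2.72 CPM (1.66–4.20) from 20 UMIs in AF75, a ratio of 0.349 (0.212–0.544). In AF76 it was at 4.95 CPM (2.47–8.86) from 11 UMIs, and the ratio of 0.678 (0.337–1.22) could not be told from 1. In AF75 2 of 5 receptors were called lower, PGRMC1 and ESR1, where 10.9% of 9391 genes were, and in AF76 0 of 5 were called either way, where 18.4% of 9423 genes were. PGR in these cells was at ratios of 1.16 (1.105–1.21) and 1.015 (0.937–1.10).

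Cluster 4 had the highest NR3C1 of the clusters in both follicles, at 43.3 CPM (34.5–53.6) for AF75 and 39.5 CPM (31.95–48.3) for AF76. The ratio to cluster 0 was 1.53 (1.22–1.91) in AF75 and 1.20 (0.965–1.47) in AF76. ESR1 was at 12.4 CPM (7.93–18.4) for AF75 and 9.145 CPM (5.73–13.85) for AF76, with ratios of 1.59 (1.01–2.39) and 1.25 (0.779–1.91). In AF75 2 of 5 receptors were called higher, NR3C1 and ESR1, where 7.38% of 9338 genes were, and in AF76 0 of 5 were called either way, where 13.5% of 9410 genes were. PGRMC1 in cluster 4 was lower than in cluster 0 by ratios of 0.844 (0.801–0.8885) and 0.899 (0.858–0.942).

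Within cluster 0 the follicles were again close, and in cluster 1 they were further apart. In cluster 0 the ratios of AF76 to AF75 ran from 0.937 (0.836–1.05) for ESR1 to 1.22 (1.19–1.24) for PGR, and 0 of the 5 receptors compared passed 1.5-fold, where 1.84% of 9482 genes did. PGR was at 1.19 (1.14–1.24) in cluster 1, 1.07 (0.975–1.17) in cluster 3 and 1.295 (1.16–1.45) in cluster 4, above 1 in each. In cluster 1 0 of the 4 receptors compared passed, where 14.2% of 7575 genes did, with NR3C1 at 1.47 (1.27–1.69) and PGRMC1 at 1.44 (1.41–1.47). ESR1 had too few UMIs in cluster 1 to be compared, 62 in AF75 and 58 in AF76, and its ratio there was 1.83 (1.25–2.655).

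A finer clustering gave 12 clusters, and 8 of them in each follicle held at least 50 cells. PGRMC2 was the most even receptor over these groups, from 70.5 to 103 CPM in AF75 and from 79.8 to 105 CPM in AF76. NR3C1 ranged from 16.02 to 42.8 CPM and from 23.1 to 39.9 CPM, highest in both follicles in finer cluster 8, which held all of cluster 4. PGR ranged from 186 to 272.5 CPM in AF75 and from 31.4 to 337 CPM in AF76, where finer cluster 6, most of cluster 2, was lowest. ESR1 spanned 10.7-fold in AF75, from 1.09 to 11.6 CPM, and 2.85-fold in AF76, from 4.81 to 13.7 CPM.

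PGR and PGRMC1 parted in cells rich in transcripts of sterol synthesis, though not in these alone. Finer cluster 1, led by INSIG1, SCD and MVD, genes of cholesterol and fatty acid metabolism, had the highest PGRMC1 of both follicles, 1017 CPM for AF75 and 981 CPM for AF76. PGR in it was the lowest of AF75, at 186 CPM, and in AF76 it was at 216 CPM, above only finer clusters 5 and 6. Finer cluster 5, led by RGN and NCCRP1, had PGR at 191 CPM (176–206) beside PGRMC1 at 887 CPM in AF75. In AF76 finer cluster 5 held 214 CPM of PGR and 733 CPM of PGRMC1. Finer cluster 2, led by STAR, which brings cholesterol to the mitochondrion for steroid synthesis, held 725 CPM and 742 CPM of PGRMC1 and 269 CPM and 326 CPM of PGR. Finer cluster 0 had about the same PGR, 269 CPM and 320 CPM, beside more PGRMC1, 909.9 CPM and 843.5 CPM. Nearly all cells of finer clusters 1 and 2 lay in cluster 0.

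**Figure D4:**
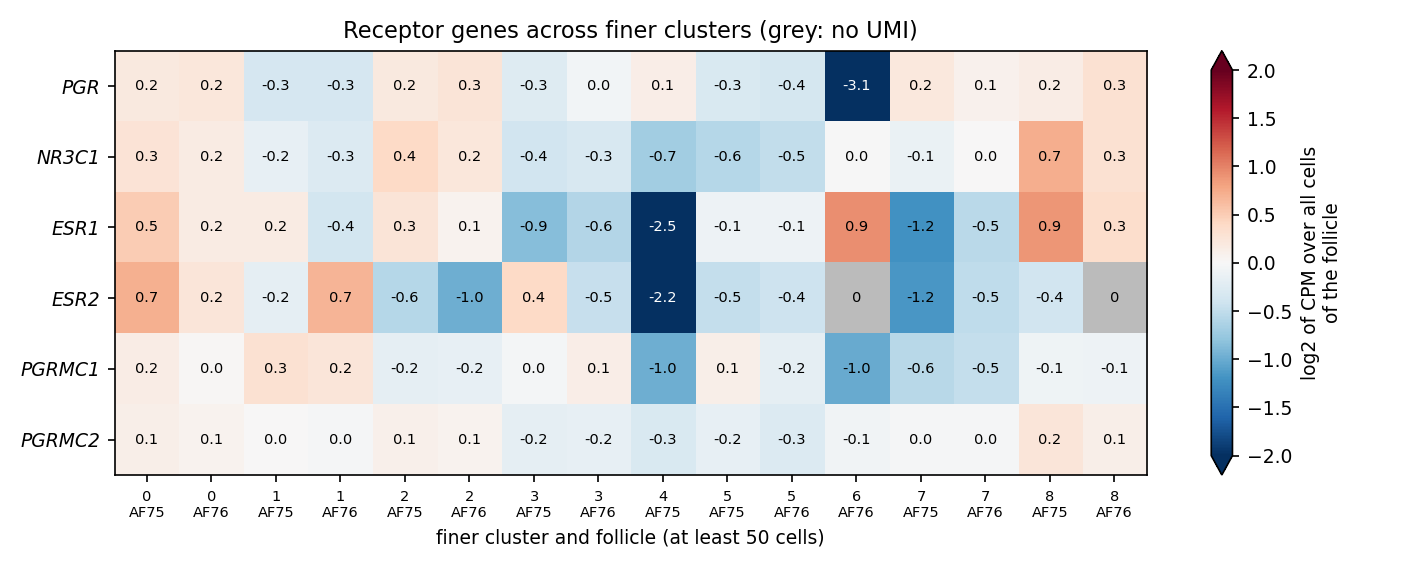
Level of each receptor gene in the finer clusters of AF75 and AF76 with at least 50 cells, colored and labelled as log2 of its CPM over the CPM of all cells of that follicle, with grey where no UMI was counted. PGR in finer cluster 6 of AF76 was at 31.4 CPM, and ESR1 and ESR2 in finer cluster 4 of AF75 were at 1.09 CPM and 0.273 CPM.

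The genes most like the receptors other than ESR1 were found by the Pearson correlation of log2(CPM + 1) over these 16 groups, among 9714 genes with at least 200 UMIs in each follicle. The groups share 2 libraries and differ in depth, so the values are descriptions. Those of PGR were CALR (0.9725), HSP90B1 (0.962) and DNAJB11 (0.957), genes for proteins that fold other proteins in the endoplasmic reticulum. Those of ESR2 were DR1 (0.872), SETD6 (0.842) and IGDCC3 (0.837). ESR2 itself, with 135 UMIs in AF75 and 139 in AF76, was under the limit of 200 set for the other genes. It had no UMI in finer clusters 6 and 8 of AF76, so its correlations rest on few counts. PGRMC1 was followed by EMP1 (0.962), EDAR (0.957) and RTN4 (0.952). NR3C1 and PGRMC2 were among each other's nearest genes, with PGRMC2 (0.959), TM9SF2 (0.957) and ADAM17 (0.9055) for NR3C1 and TM9SF2 (0.964), SSFA2 (0.961) and NR3C1 (0.959) for PGRMC2. Without finer cluster 6, the values for the 3 genes of PGR were 0.523 to 0.797, over 15 groups.

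Partners and targets of the receptors were followed through 9 lists drawn up by role, which held 105 genes, 98 of them matched in the deposited list. Between the follicles, 0 of the 12 chaperones of receptor complexes and 0 of the 16 coregulators passed 1.5-fold, where 1.79% of all genes compared were called higher in AF76 and 3.83% lower, with median log2 ratios of 0.03 and 0.04. Of 13 other nuclear receptors 1 was called higher in AF76 and 2 lower, and of 5 other steroid receptors 0 were called either way. Those called lower were NR4A1 and NR4A3, immediate early orphan receptors, at 5.02 CPM against 13.4 CPM and at 0.496 CPM against 1.915 CPM in AF75. Of 6 genes of steroid synthesis 1 was called higher, SRD5A1, which reduces testosterone and progesterone, at 17.8 CPM against 11.25 CPM in AF75.

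Glucocorticoid-responsive genes were called both ways in cluster 1, where NR3C1 itself was lower. Of 9 compared, 3 were called higher and 2 lower in AF75, where 7.3% of all genes were called higher and 13.3% lower. In AF76 4 were called higher and 1 lower, where 3.21% of all genes were called higher and 2.66% lower. The list medians were 0.04 and 0.31 on the log2 scale, beside -0.09 and 0.01 for the genes compared. SGK1, a kinase of ion transport, was at 55.2 CPM against 15.6 CPM in cluster 0 of AF75 and 31.3 CPM against 11.7 CPM in cluster 0 of AF76. TSC22D3, an anti-inflammatory regulator, was at 34.8 CPM against 10.3 CPM and at 19.0 CPM against 7.72 CPM. ERRFI1, an inhibitor of the EGF receptor, was lower, at 19.2 CPM against 46.6 CPM and at 24.7 CPM against 42.3 CPM.

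In cluster 2, where NR3C1 was level with cluster 0, 6 of 10 glucocorticoid-responsive genes were called higher, where 38.7% of all genes compared were, and 2 lower, where 14.7% were, with a median of 0.85 beside 0.36. KLF9, a transcription factor, was at 44.2 CPM against 2.205 CPM, a ratio of 20.03 (16.4–24.5). ZBTB16, another transcription factor, was at 55.15 CPM against 5.07 CPM, a ratio of 10.9 (9.30–12.7). SLC19A2, a thiamine transporter, was lower, at 11.8 CPM against 37.3 CPM. Of the 3 genes of cortisol handling 2 had enough UMIs and were called higher, HSD11B1, which turns cortisone into cortisol, at 20.3 CPM against 6.81 CPM, and H6PD, which supplies its cofactor, at 46.4 CPM against 22.5 CPM. HSD11B2, which inactivates cortisol, had too few UMIs to be compared, 15 and 27, at 3.11 CPM against 0.313 CPM.

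Progesterone receptor-responsive genes were called both ways. Between the follicles 1 of 9 was called higher in AF76 and 3 lower, where 1.79% and 3.83% of all genes were. AREG, an EGF-like ligand of ovulation, was at 5321 CPM against 2776 CPM in AF75, and PTGS2, the inducible prostaglandin synthase, at 0.202 CPM against 8.56 CPM, a ratio of 0.0236 (0.0147–0.0359). PTGS2 was among the leading genes of finer cluster 4, which lay almost wholly in AF75. In cluster 2, 2 of 8 were called higher and 4 lower, where 38.7% and 14.7% of all genes were, with a median of -0.42 beside 0.36. There AREG was at 246.5 CPM against 5840 CPM and EREG, a related ligand, at 0.829 CPM against 17.1 CPM, while CITED2, a transcriptional coregulator, was at 243 CPM against 40.9 CPM. ZBTB16 belongs to this list as well as to the glucocorticoid list.

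Of 7 estrogen-responsive genes compared in cluster 2, 1 was called higher and 3 lower, where 38.7% and 14.7% of all genes were, with INHA and PGR itself the lowest. CCND2, a cyclin, was the gene called higher, at 49.8 CPM against 8.53 CPM. In cluster 1 of AF75 2 of 8 were called higher and 2 lower, where 7.3% and 13.3% of all genes were. In cluster 1 of AF76 0 of 7 were called higher and 1 lower, where 3.21% and 2.66% were. Those called higher in AF75 were IGF1, a growth factor, at 12.5 CPM against 2.50 CPM, and CCND2, at 22.7 CPM against 10.7 CPM. CYP19A1, the aromatase that makes estrogen, was lower in cluster 1 of both follicles, at 6.59 CPM against 28.9 CPM in AF75 and 13.3 CPM against 35.4 CPM in AF76. Of the genes of steroid synthesis 4 of 6 were called lower in cluster 1 of AF75, where 13.3% of all genes were, and 2 of 6 in AF76, where 2.66% were, and 0 higher in either.

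PAQR7, a membrane progestin receptor, was lower in cluster 2, at 3.32 CPM against 9.11 CPM. PAQR8, another of these, had 33 and 80 UMIs, too few to be compared, and stood the other way, at 6.84 CPM against 0.9285 CPM. Of the other nuclear receptors 8 of 11 were called higher in cluster 2 and 1 lower, the last being NR5A2, a regulator of steroid synthesis, at 203 CPM against 496 CPM. Over all genes compared 38.7% were called higher there and 14.7% lower. Of the coregulators 8 of 16 were called higher there and 0 lower, with NCOA4 at 779.8 CPM against 174 CPM and CREBBP at 60.95 CPM against 19.2 CPM. Of the chaperones 1 of 12 was called higher, FKBP5, which glucocorticoids are known to induce, at 422 CPM against 113 CPM, and 4 were called lower, among them BAG1 at 159 CPM against 451 CPM and FKBP4 at 65.1 CPM against 148 CPM.

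**Figure D5:**
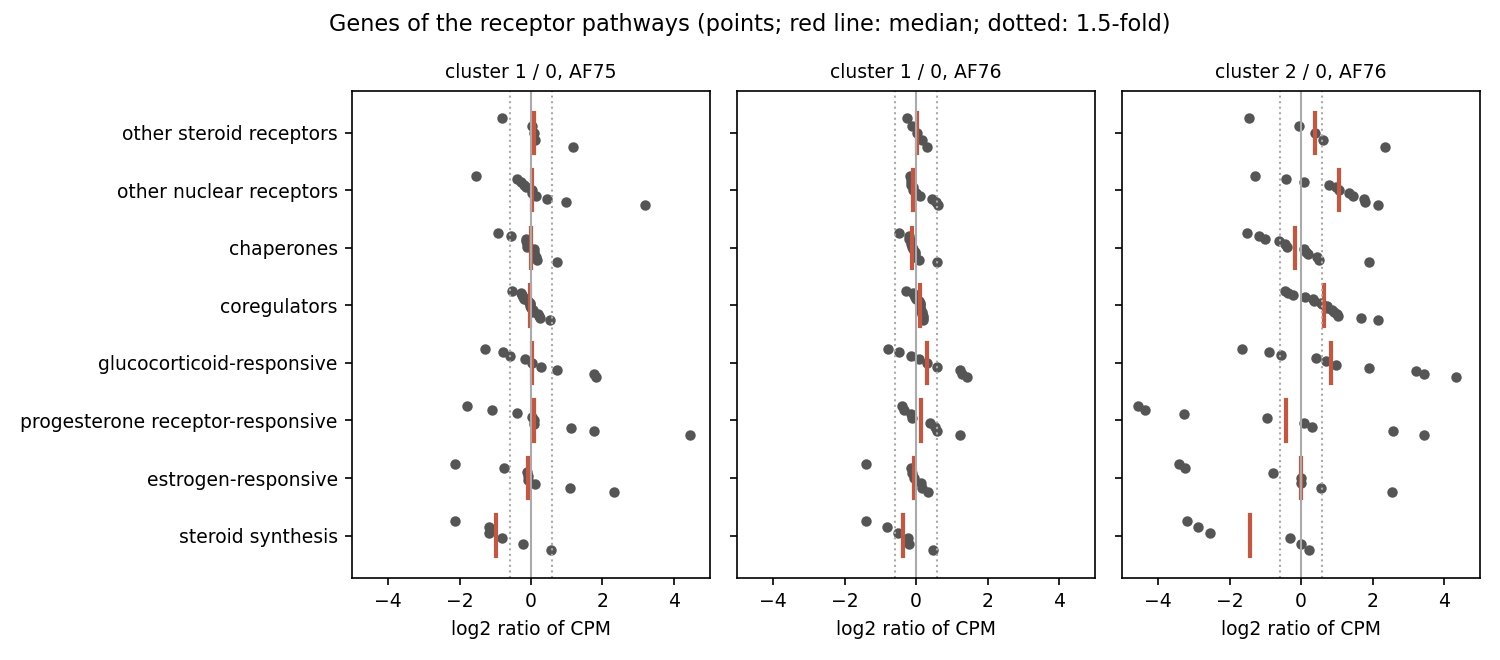
Log2 ratio of CPM for the compared genes of each receptor pathway list (points), with list medians as red lines and 1.5-fold limits as dotted lines, for cluster 1 to cluster 0 in AF75 and AF76 and for cluster 2 to cluster 0 in AF76. In cluster 2 the medians were 1.06 for other nuclear receptors, 0.85 for glucocorticoid-responsive genes and -1.41 for steroid synthesis. The 6 steroid synthesis genes were split there: 3 were called lower, STAR, HSD17B7 and SRD5A1, and 0 higher, where 14.7% and 38.7% of all genes were. The ratios of CYP11A1, CYP19A1 and HSD17B4 were 1.17, 1.00 and 0.806.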

How the data were processed

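Per the labels and the study's methods, libraries were made with the 10x Genomics 3' v3.1 kit, and the authors aligned and counted reads with CellRanger 6.0.2 against Sscrofa11.1. The deposited values are raw UMI counts per gene and barcode, without normalization. Barcodes with 2000 to 5000 genes and under 7% mitochondrial UMIs were kept, and doublets were left in. Clusters were rebuilt from the counts in R 4.3.3 with Seurat 5.3.0: log normalization to 10000, 2000 variable genes per follicle without the receptors and pathway lists, anchor integration, 40 components and the lowest resolution (step 0.02) giving 6 clusters, with a finer clustering at resolution 0.8. They may differ from those of the study. Summed CPM, intervals, ratios and thinning were computed in Python 3.11.15 (numpy 2.4.6, scipy 1.17.1, pandas 2.3.3), checked on simulated data, Scrublet scores with scanpy 1.11.5, and protein alignments with Biopython 1.88. Total UMIs per library were 125409747 in AF75 and 127414267 in AF76. Symbols were read as deposited, and 1042 of 7356 identifiers without one were named from RefSeq.

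All 6 receptors are reported in full. From the pathway lists, counts past 1.5-fold among genes with 200 UMIs in 1 of the groups are given, and genes are named from those with the 2 largest folds each way in a comparison, with HSD11B2 and PAQR8 added after their values were seen. Some items are not reported here. The 3 most correlated genes are named for each receptor except ESR1, and clusters by their leading genes among those at 50 CPM or more. The receptors and the lists were chosen with earlier results of these data known, so list counts are descriptions. Alternatives covered normalization, depth, barcode limits, doublets and clustering.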

Additional observations from a re-analysis of the deposited data

Results flagged for a closer look

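PGRMC1 stood out because its difference between cluster 1 and cluster 0 had opposite signs in the follicles. The ratio of CPM was 0.700 in AF75 and 1.07 in AF76. With 1 library per follicle this difference was not tested. Finer cluster 4, with 415 CPM of PGRMC1 in AF75, made up 43.6% of cluster 1 there and 5.07% in AF76, and without it the ratios were 0.880 and 1.08.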

How the results depend on the processing

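Of the values recomputed under alternatives, 90 moved by no more than counting error or the difference between the follicles, 30 moved by more, and 5 changed sign. For the log2 ratio of AF76 to AF75, PGR, at 0.22, became 0.14 with CPM averaged over cells, 0.15 thinned to 5000 UMIs, 0.19 with limits of 500 to 6000 genes and 0.17 over all barcodes. PGRMC1, at 0.025, became -0.025, -0.022, -0.0027 and -0.0056 under the same settings, and 0.043 without mitochondrial and ribosomal protein genes in the library size. Without cluster 2, a choice made after seeing the data, PGR was at 0.28 and PGRMC1 at 0.058. Thinning changed the share of cells with a UMI, in AF75 and AF76, to 3.08% and 3.502% for ESR1, 0.567% and 0.543% for ESR2, 61.6% and 63% for PGR, 11.2% and 14.4% for NR3C1, 92.25% and 90.8% for PGRMC1, 34.6% and 37.8% for PGRMC2. For the mean log2 ratio of cluster 1 to cluster 0, ESR1, at -1.21, was -0.30 without integration, and NR3C1, at -0.47, was -0.80 with 20 components. PGR, at -0.094, was -0.25 without integration, -0.15 with 20 components, -0.27 with the receptors and lists among the variable genes and -0.19 with another random seed. ESR2, at -0.55, was -0.31 with CPM averaged over cells, -0.23 without likely doublets, -0.32 with the lists kept and 0.20, a change of sign, with 20 components. Without integration cluster 1 of 1 follicle held no ESR2 UMI, which gave no value. Without finer cluster 4, also chosen after seeing the data, ESR2 was at -0.20 and PGR at -0.19. The follicles taken alone gave -1.70 to -0.73 for ESR1, -0.68 to -0.42 for ESR2, -0.11 to -0.077 for PGR, -0.63 to -0.30 for NR3C1, -0.51 to 0.10 for PGRMC1, -0.31 to -0.18 for PGRMC2. The cause of these shifts was not tested. No paired analysis was possible because each follicle gave 1 library and the groups share fewer than 2 replicate numbers. ESR2, with 135 and 139 UMIs in all, was limited by depth in each comparison between clusters.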

Other observations

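The barcodes outside the limits entered only the leukocyte-like and red-cell sets and the alternatives with wider limits or all barcodes. Their receptor levels were as follows. In the barcodes with fewer than 2000 genes (4595 in AF75 and 7397 in AF76), PGR was at 267 and 212 CPM for AF75 and AF76, and NR3C1 at 24.15 and 23.3 CPM for AF75 and AF76. PGRMC1 in these barcodes was at 531 and 478 CPM for AF75 and AF76, below its 819 CPM and 833 CPM in cells. PGRMC2 was at 43.9 and 61.2 CPM for AF75 and AF76, also below its level in cells, and ESR1 at 9.25 and 7.28 CPM for AF75 and AF76. In the barcodes with 2000 to 5000 genes and 7% or more mitochondrial UMIs (193 and 142), PGR was at 259 CPM (235–284.5) for AF75 and 322 CPM (293–354) for AF76. NR3C1 in these barcodes was at 34.8 CPM (26.5–44.9) for AF75 and 46.8 CPM (36.0–59.7) for AF76. Both genes stood above the cells in AF76, while in AF75 their intervals overlapped those of the cells. In the barcodes with more than 5000 genes (139 and 166), PGR was at 224 and 259 CPM for AF75 and AF76.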
